A study of Rattus norvegicus with 3 samples.

Results

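The angiotensin, endothelin and nitric oxide systems were described in the rat heart through 10 of their genes: Ace, Agt, Agtr1a, Nr3c2, Edn1, Ednra, Ednrb, Ece1, Nos1 and Nos3. The genes were taken by name and not by any measured value, though earlier results of these data were known. All 10 were found once among the 22250 genes of the count files. Single nuclei RNA-seq was performed on 1 library of each of 3 genotypes of rats 12 months old. WT rats were wild-type at the dystrophin gene Dmd. BMD rats (R-BMDdel45-47, a model of Becker muscular dystrophy) carried a genome-edited deletion of Dmd exons that keeps the reading frame, and DMD rats (R-DMDdel52, a model of Duchenne muscular dystrophy) carried a Dmd exon deletion that breaks it. The deletions were present in every cell, the nuclei came from the heart apex with parts of the septum and of both ventricles, and they were sorted as DAPI-stained nuclei before loading, so no cell type was selected. The labels do not give the number of animals behind a library, nor their sex.

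Angiotensinogen, encoded by Agt, is the precursor from which cleavage, the last step by the angiotensin-converting enzyme Ace on the endothelial surface, gives angiotensin II, which acts through receptors such as the type 1 receptor Agtr1a, and which drives the adrenal release of aldosterone, whose receptor is the mineralocorticoid receptor Nr3c2. Endothelin-1, the product of Edn1, is released by endothelial cells after cleavage by the endothelin-converting enzyme Ece1, contracts vascular muscle through the receptor Ednra, and is cleared and opposed through the endothelial receptor Ednrb. Nitric oxide is made by the endothelial synthase Nos3 and by the neuronal synthase Nos1, and relaxes vascular muscle through soluble guanylate cyclase. In skeletal muscle the Nos1 protein is anchored to the dystrophin complex. Inhibitors of angiotensin conversion and blockers of the mineralocorticoid receptor are used in dystrophic cardiomyopathy.

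In all, 24664 nuclei were used, with median depths of 1212.5 UMIs (unique molecular identifiers, counted transcripts) in WT, 1486.5 in BMD and 1229 in DMD. Clustering gave 13 named classes, and 1713 nuclei (6.95%) stayed unnamed. A level is given as CPM, the UMIs of a gene per 1000000 UMIs of the class in 1 library, with an exact Poisson 95% interval. With 1 library a genotype there was no test, and every interval covers counting error only and not the difference between animals. A gene was taken as measured in a comparison with at least 50 UMIs over both libraries of a class, and a ratio was read against a fold of 1.5. A class was compared between libraries where each held at least 100 nuclei, which left 9 classes. The endothelial nuclei formed an arterial-leaning cluster, in which 9 arterial and 2 venous markers were raised, and a venous-leaning one with 3 arterial and 7 venous markers raised. Classes were named from marker lists, so a high sum of a class's own list follows from the naming and is no check. The cardiomyocyte list summed to 20237 to 22456 CPM in cardiomyocytes and to 462 to 2667 CPM in the other 8 compared classes. Smooth muscle nuclei had 7 of their own markers raised beside 8 pericyte markers, and endocardial nuclei 6 beside 7 endothelial markers. The targeted gene Dmd read 16458.5 CPM in WT cardiomyocytes, 20559.4 CPM in BMD and 19427.8 CPM in DMD. This count, which is summed over the gene and not split by exon, did not tell the genotypes apart. Free RNA was gauged from barcodes holding up to 50 UMIs and made up at most 2.23% to 24.7% of a class, the highest value being that of the WT lymphatic nuclei. In the class called monocyte or neutrophil, 45.1% of nuclei were doublet calls and Dmd read 10734 to 14687 CPM, so its values were left aside. Levels of different genes are not compared with each other, because a UMI count per gene depends on capture as well as on transcript number.

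**Figure D1:**
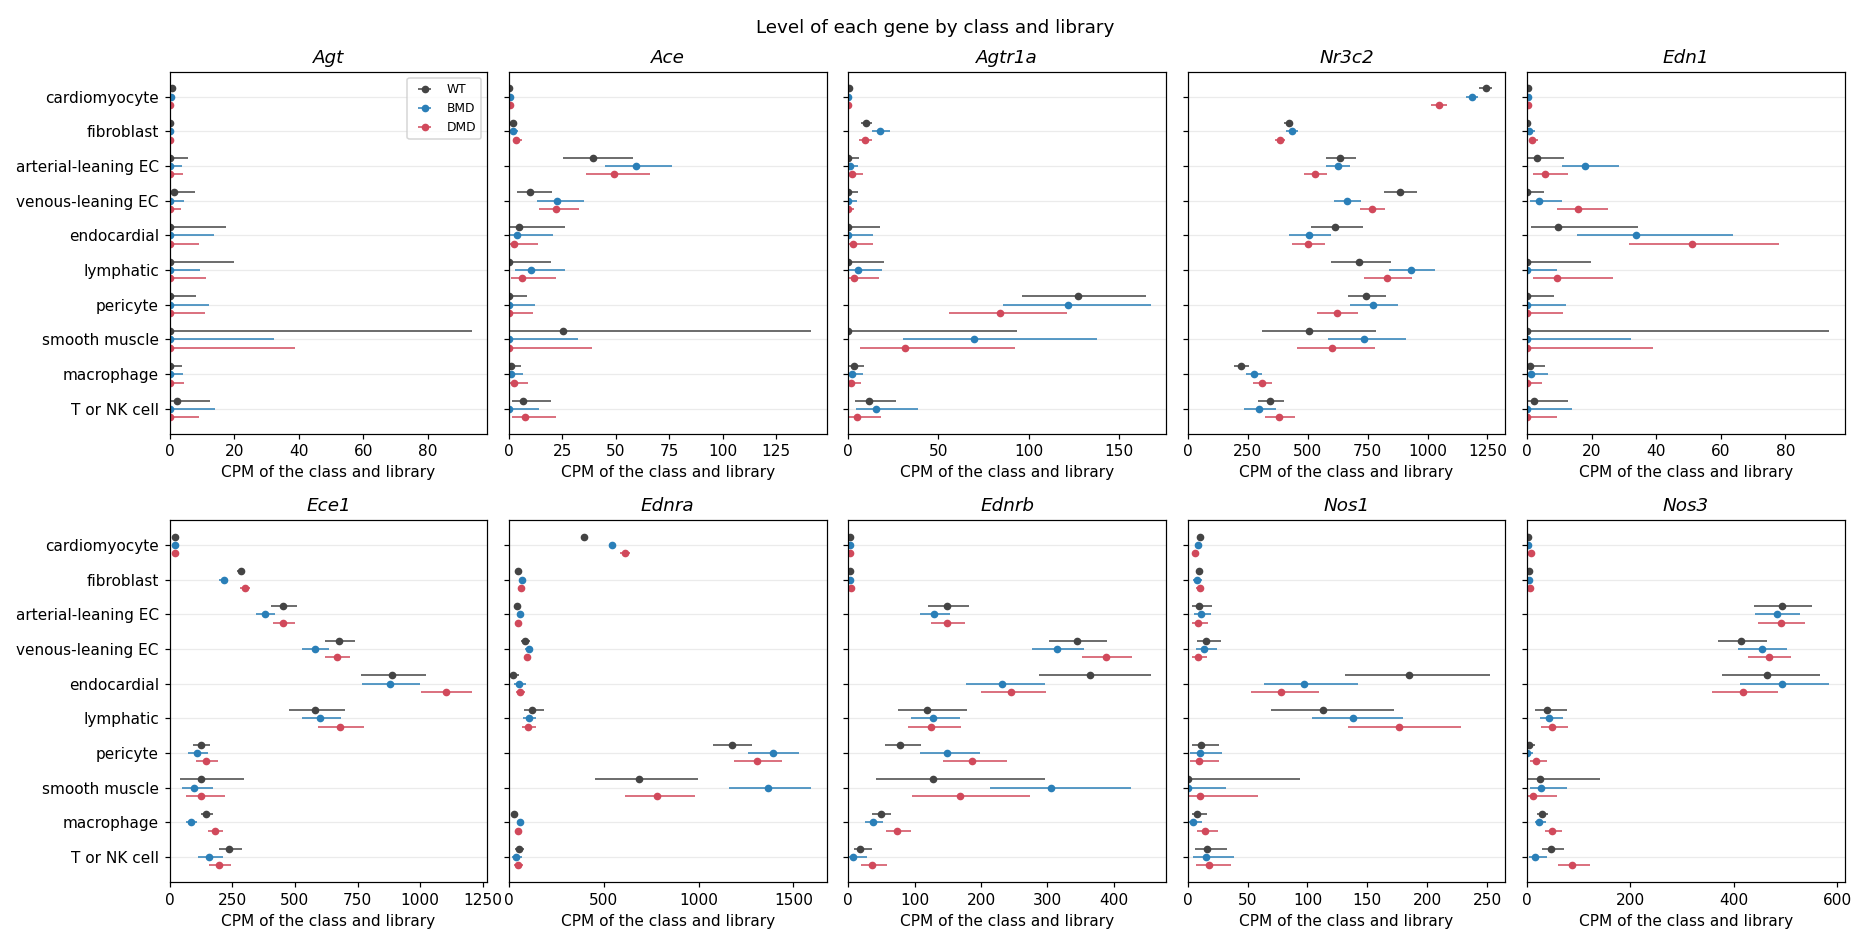
Level of the 10 genes (x axis, CPM of the class and library, linear, a scale of its own for each gene) in 10 classes (y axis), with WT in black, BMD in blue and DMD in red. Points are levels and bars the 95% Poisson intervals of 1 library each. Nos3, Ednrb, Ece1, Ace and Edn1 peak in endothelial or endocardial nuclei, Ednra and Agtr1a in pericytes, and Nr3c2 in cardiomyocytes.

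Over the 9 compared classes, 41 pairs of a gene and a class were measured in BMD over WT, and 6 of them lay past the fold, 3 higher and 3 lower in BMD. Among all genes, 16.1% of the measured pairs of gene and class lay past it. In DMD over WT, 10 of 43 pairs lay past the fold, 7 higher and 3 lower in DMD, against 14.1% of all pairs. In DMD over BMD, 4 of 42 did so, 3 higher and 1 lower in DMD, against 12.9% of all pairs. The share of these genes past the fold was thus 14.6% in BMD over WT, 23.3% in DMD over WT and 9.52% in DMD over BMD, above that of all genes in DMD over WT and below it in the others.

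**Figure D2:**
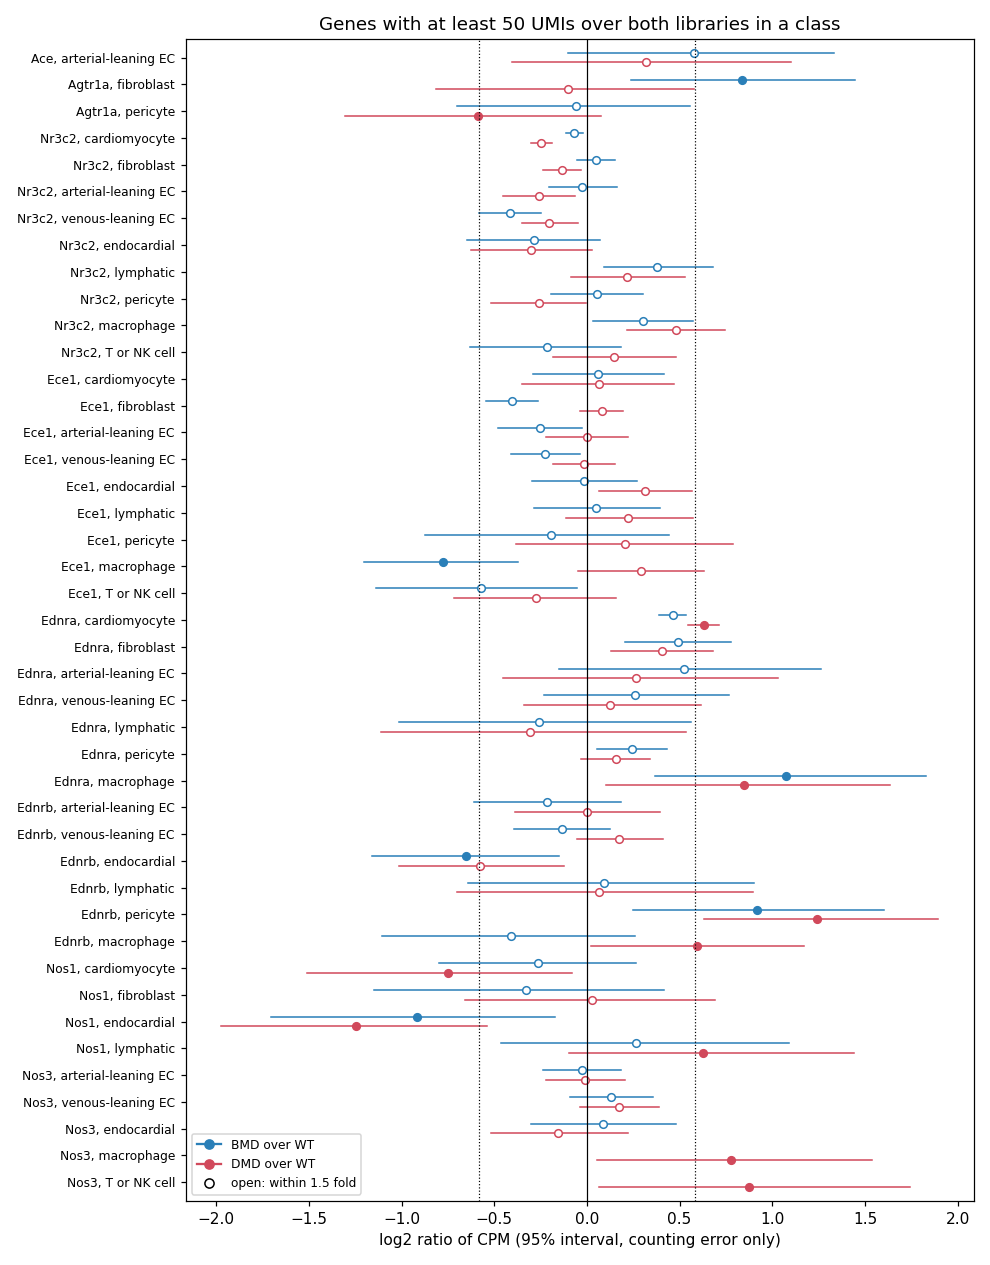
Log2 ratio of CPM (x axis) for every measured pair of gene and class (y axis), with BMD over WT in blue and DMD over WT in red. Bars are 95% intervals of counting error, open points lie within 1.5 fold and the dotted lines mark that fold. Most points are open. Ednra in cardiomyocytes and Ednrb in pericytes lie to the right of 0 in both comparisons, and Nos1 in endocardial nuclei lies to the left in both.

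The substrate of the angiotensin system was nearly absent. Agt gave 10 UMIs in all WT nuclei, 2 in BMD and 2 in DMD, and 8 of the 14 fell in cardiomyocytes, the most UMI-rich class. No order of classes and no difference between libraries could be read at this depth.

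Ace, which makes angiotensin II, was a gene of a part of the endothelium. In arterial-leaning endothelial nuclei, Ace read 39.2 CPM (95% interval 25.4 to 57.9) in WT, 59.2 (45.1 to 76.4) in BMD and 49.3 (36 to 66.0) in DMD. In venous-leaning nuclei it read 9.84 CPM (3.96 to 20.3) in WT, 22.3 (13.2 to 35.3) in BMD and 22.1 (14.2 to 32.9) in DMD. The arterial-leaning level was thus above the venous-leaning one in every library, by 3.80 fold in WT, 2.60 fold in BMD and 2.21 fold in DMD, and all 3 intervals of the log2 ratio lay above 0. In endocardial nuclei Ace gave only 3 UMIs over the 3 libraries together, at 2.43 to 4.74 CPM. There 3 UMIs in 1 library stand for 7.28 to 14.2 CPM, so the endocardial level was poorly resolved. Ace gave 0 UMIs in pericytes of all 3 libraries, where the floor of 3 UMIs used here for a count of 0 stands for 6.71 to 9.87 CPM.

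A finer clustering, at Leiden resolution 1, placed Ace more narrowly. In the endothelial cluster led by Dkk2, Bmx and the arterial connexin gene Gja4, Ace read 67.9 CPM (WT), 106 (BMD) and 87.7 (DMD). In the clusters led by Kit and Gpihbp1 and by Selp and Slco2a1, it read between 10.2 and 23.7 CPM. The Gja4 cluster thus held the highest Ace level in every library, with the same order of the libraries as in the whole arterial-leaning class. Over the endothelial and endocardial nuclei summed (arterial-leaning, venous-leaning and endocardial), Ace gave 33 UMIs (WT), 78 (BMD) and 70 (DMD), a log2 ratio of 0.82 (0.23 to 1.47) in BMD over WT and of 0.45 (-0.16 to 1.10) in DMD over WT. Only the BMD interval stayed clear of 0. The Gja4 cluster held 21.8% of the WT, 28.7% of the BMD and 20.3% of the DMD nuclei in the endothelial clusters. The part of this shift in the summed Ace ratios was not tested.

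The receptor Agtr1a was highest in pericytes and, among the compared classes, next in fibroblasts and in T or NK cells (11 UMIs). In pericytes, the contractile cells around capillaries, Agtr1a read 127 CPM (57 UMIs, 96.5 to 165) in WT, 122 (37 UMIs, 85.7 to 168) in BMD and 84.1 (28 UMIs, 55.9 to 121) in DMD. DMD was the lowest, but the intervals of the 3 libraries overlapped and the log2 ratio of DMD over WT, -0.59 (-1.31 to 0.08) was past the fold without clearing 0. In smooth muscle nuclei, of which there were only 41 in WT, Agtr1a gave 0 UMIs in WT (a floor of 76.2 CPM), 69.9 CPM in BMD and 31.6 CPM in DMD. Endothelial, endocardial and cardiomyocyte nuclei together gave 1 UMI each in WT and BMD and 3 in DMD.

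In fibroblasts Agtr1a read 9.77 CPM (47 UMIs, 7.18 to 13) in WT, 17.5 (50 UMIs, 13 to 23.0) in BMD and 9.06 (31 UMIs, 6.15 to 12.9) in DMD. BMD stood above both other libraries, with a log2 ratio of 0.84 (0.24 to 1.45) over WT and of -0.94 (-1.64 to -0.27) for DMD over BMD. The BMD count rested on few nuclei. In 1 of the 5 fibroblast clusters of resolution 1, 11 BMD UMIs (37.4 CPM) came from 3 of 219 nuclei, and 1 nucleus held 9 of them. Without that cluster, a comparison added after seeing the data, the log2 ratio of BMD over WT was 0.39 (-0.30 to 1.09), inside the fold, and that of DMD over BMD -0.82 (-1.61 to -0.07). In the cluster led by Efhd1 and Tnfrsf11b, WT was the highest, with 18.6 CPM against 6.83 in BMD and 5.49 in DMD, so BMD over WT was reversed there at -1.33 (-3.17 to -0.05). In the cluster led by Ccn5 and Nox4, which held 121 WT, 560 BMD and 538 DMD nuclei, it read 12.8, 33.6 and 21.5 CPM, and 31 of the 51 BMD UMIs of the fibroblast clusters came from it. Pericyte markers in fibroblasts summed to 620 CPM in WT, 554 in BMD and 789 in DMD over 10 of 10 markers. That list holds Colec11, which led a fibroblast cluster here, so the sum cannot gauge pericyte RNA. The part of pericyte RNA in the Agtr1a levels was not tested.

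Nr3c2, the mineralocorticoid receptor, was the most evenly spread of the 10 genes. Its highest level was in cardiomyocytes, at 1243 CPM (1216 to 1270) in WT, 1186 (1160 to 1212) in BMD and 1048 (1016 to 1081) in DMD. The 3 intervals did not overlap, and the DMD level lay below WT by a log2 ratio of -0.25 (-0.30 to -0.19), inside the fold. The cardiomyocyte cluster of resolution 1 led by Myo3b held 76.6% of the WT, 11.1% of the BMD and 16.5% of the DMD nuclei. Within it the log2 ratio was -0.08 (-0.21 to 0.04) in BMD over WT and -0.28 (-0.43 to -0.15) in DMD over WT. The part of this shift in the cardiomyocyte levels of Nr3c2 was not tested. Macrophages had the lowest level, 223 CPM in WT, 275 in BMD and 311 in DMD, where the order of the libraries was the opposite one and the ratio of DMD over WT was 0.48 (0.21 to 0.75). Between them lay the lymphatic nuclei at 715 to 931 CPM, venous-leaning endothelium at 664 to 885, pericytes at 621 to 773 and arterial-leaning endothelium at 532 to 637, and each of these ranges overlapped that of the next class in the order. No class passed the fold for Nr3c2 in any comparison. Free RNA could supply at most 47.1 to 79.1 CPM of the macrophage level.

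Edn1, the ligand of the endothelin system, was the rarest of the vascular genes and the one whose count differed most between libraries. All nuclei together gave 8 UMIs (WT), 37 (BMD) and 66 (DMD). In endocardial nuclei, the lining of the heart chambers, Edn1 read 9.47 CPM (2 UMIs, 1.15 to 34.2) in WT, 33.6 (9 UMIs, 15.4 to 63.8) in BMD and 51.0 (21 UMIs, 31.5 to 77.9) in DMD. WT was the lowest, but its interval overlapped both others. No single class reached 50 UMIs over 2 libraries, so no pair of Edn1 and a class counts among those above.

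Of the arterial-leaning and venous-leaning nuclei, the first held most Edn1 UMIs in BMD and the second in DMD, on few UMIs. In arterial-leaning nuclei it read 3.14 CPM (2 UMIs) in WT, 18.1 (18 UMIs, 10.7 to 28.6) in BMD and 5.48 (5 UMIs, 1.78 to 12.8) in DMD. In venous-leaning nuclei it gave 0 UMIs in WT (a floor of 4.22 CPM), 3.72 CPM (3 UMIs, 0.77 to 10.9) in BMD and 15.7 CPM (17 UMIs, 9.12 to 25.1) in DMD. BMD was thus the highest in the arterial-leaning and DMD in the venous-leaning nuclei. The log2 ratio of arterial-leaning over venous-leaning Edn1 was 2.10 (0.50 to 4.69) in BMD and -1.42 (-3.31 to -0.02) in DMD. At the finer resolution the Gja4 cluster held 17 BMD UMIs (35.4 CPM against 7.15 in WT and 13.7 in DMD), while the Selp cluster held 3 and the Kit cluster 1. In DMD the Selp cluster held 17 UMIs (15.5 CPM), the Gja4 cluster 5 and the Kit cluster 0. The DMD levels of the Selp and Gja4 clusters, 15.5 and 13.7 CPM, were thus close, and these clusters held 943 and 385 DMD nuclei. The finer clusters count largely the same UMIs again. These clusters were drawn without the 10 genes among the clustering genes.

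Summed over the arterial-leaning, venous-leaning and endocardial nuclei, Edn1 gave 4 UMIs (2.56 CPM, 0.70 to 6.57) in WT, 30 (14.5 CPM, 9.78 to 20.7) in BMD and 43 (17.8 CPM, 12.9 to 24.0) in DMD. The WT interval lay below both others. The log2 ratio was 2.35 (0.99 to 4.47), or 5.11 fold, in BMD over WT and 2.65 (1.34 to 4.74), or 6.26 fold, in DMD over WT, whereas DMD over BMD gave 0.29 (-0.41 to 1.02). These sums hold 34 and 47 UMIs over both libraries, under the minimum of 50 for a measured gene, and are given as values only. They were not run under the alternative settings. Free RNA held 0 UMIs of Edn1 in WT and BMD and could supply at most 0.53 to 0.86 CPM of the DMD level in these 3 classes. Nuclei with an Edn1 UMI were few, 0.26% of arterial-leaning nuclei (WT), 1.87% (BMD) and 0.53% (DMD), and 0.13%, 1.10% and 0.11% after every nucleus was thinned to 500 UMIs.

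**Figure D3:**
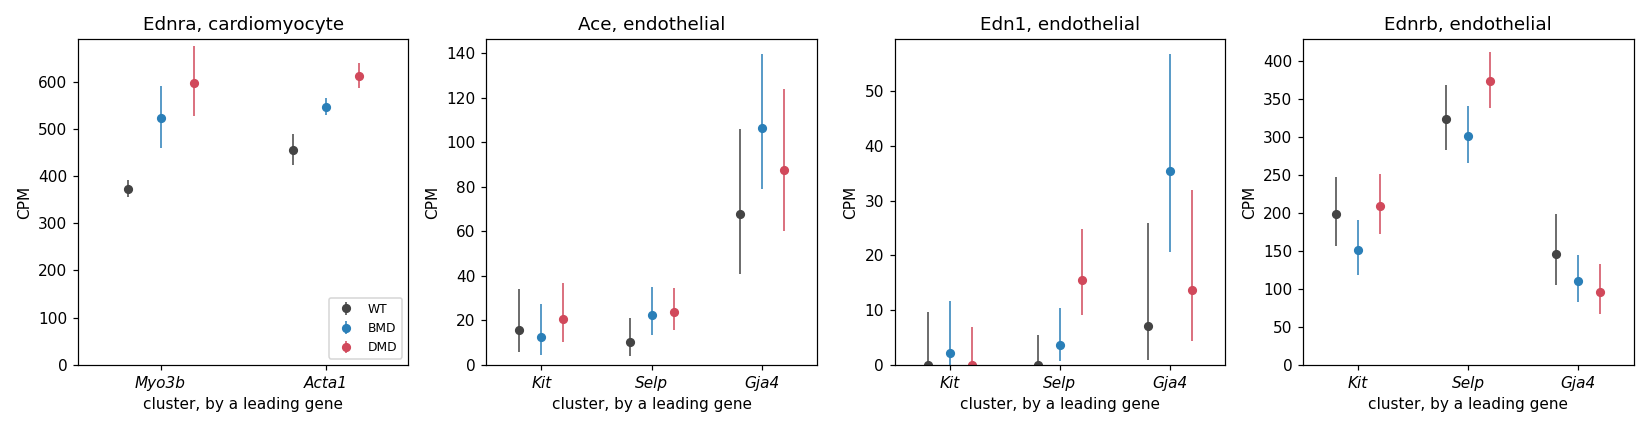
Levels (y axis, CPM, from 0) of Ednra in the cardiomyocyte clusters and of Ace, Edn1 and Ednrb in the endothelial clusters of Leiden resolution 1 (x axis, each named by a leading gene), with WT in black, BMD in blue and DMD in red and 95% Poisson intervals. Ace is highest in the Gja4 cluster in all 3 libraries, Edn1 is highest there in BMD (35.4 CPM), and Ednra is lowest in WT in both cardiomyocyte clusters.

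The promoter letters of Edn1 and of Nos3 are shown because their counts in endothelial nuclei differed between libraries to unequal degrees, that of Edn1 (under the minimum of 50 UMIs) lying 5.11 fold (BMD) and 6.26 fold (DMD) above WT and that of Nos3 1.04 fold and 1.03 fold above it. Both are the 250 bases before the transcription start in RefSeq, on build GRCr8, whereas the counts were made on rn6. Edn1 lies at chr17:22666688-22666937 on the minus strand and Nos3 at chr4:11706582-11706831 on the minus strand. Capitals mark 4 motifs searched for on either strand: the TATA box as TATAAA, the motif of the GATA factors as AGATAA, that of the ETS factors as AGGAAG and that of Sp1 as GGGCGG.
Edn1: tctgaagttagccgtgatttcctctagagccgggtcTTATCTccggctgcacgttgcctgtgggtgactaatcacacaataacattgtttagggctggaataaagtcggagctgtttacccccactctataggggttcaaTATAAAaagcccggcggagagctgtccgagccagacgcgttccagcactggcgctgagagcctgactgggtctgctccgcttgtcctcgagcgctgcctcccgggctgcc
Nos3: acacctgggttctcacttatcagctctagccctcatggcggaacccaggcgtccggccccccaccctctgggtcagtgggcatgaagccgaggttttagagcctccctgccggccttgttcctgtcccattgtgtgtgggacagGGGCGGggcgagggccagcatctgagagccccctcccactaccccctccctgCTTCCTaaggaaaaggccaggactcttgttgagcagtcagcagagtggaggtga
The Edn1 window held TATAAA at 110 to 105 bases before the start and TTATCT, the reverse complement of AGATAA, at 214 to 209 bases before it. The Nos3 window held GGGCGG at 106 to 101 bases and CTTCCT, the reverse complement of AGGAAG, at 54 to 49 bases before the start, and neither TATAAA nor AGATAA. Over 33469 promoters of the same length, 12.9% held TATAAA, 10.3% AGATAA, 29.5% AGGAAG and 30.5% GGGCGG on either strand. Of the 10 genes 8 were in the promoter table (all but Agt and Nr3c2): 3 of the 8 held TATAAA, 1 AGATAA, 4 AGGAAG and 5 GGGCGG. A match is a description of the letters and not of a bound site.

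Ece1, which cuts the endothelin precursor, was highest in the endocardium and present across the endothelium and in fibroblasts. Endocardial nuclei read 886 CPM (763 to 1022) in WT, 878 (769 to 998) in BMD and 1102 (1003 to 1208) in DMD. DMD was the highest, at a log2 ratio of 0.31 (0.07 to 0.57) over WT, inside the fold. Venous-leaning endothelium read 579 to 677 CPM, lymphatic nuclei 581 to 680 and arterial-leaning endothelium 381 to 454, whereas cardiomyocytes stayed at 20.3 to 21.3 CPM, of which free RNA could supply at most 3.55 to 10.6 CPM.

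In macrophages Ece1 read 147 CPM (145 UMIs, 124 to 173) in WT, 85.5 (75 UMIs, 67.3 to 107) in BMD and 180 (147 UMIs, 152 to 212) in DMD. BMD lay below both others without overlap of the intervals, with log2 ratios of -0.78 (-1.20 to -0.37) over WT and 1.07 (0.66 to 1.49) for DMD over BMD. Fibroblasts showed the same order at a smaller size, with 285 CPM (WT), 215 (BMD) and 301 (DMD) and a ratio of -0.40 (-0.54 to -0.27) in BMD over WT. Fibroblast markers in macrophages, 9 of 9, moved in the same order, with 2138 CPM (WT), 1499 (BMD) and 3554 (DMD), and 15.6% of macrophage nuclei were doublet calls. Without doublet calls the log2 ratio of BMD over WT was -0.83 and that of DMD over BMD 0.94, and the part of the fibroblast markers in the rest was not tested. The macrophage clusters of resolution 1 were also filled unequally, that led by Spp1 and Il1rn holding 286 WT, 103 BMD and 118 DMD nuclei. Within clusters the ratio of BMD over WT was -0.35 in the Spp1 cluster, -0.97 in the cluster led by Ltc4s and C1qc and -0.40 in the cluster holding Pak7 and Slamf7, so 2 of the 3 lay inside the fold.

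Ednra, the contractile endothelin receptor, was a gene of mural cells and of cardiomyocytes. Pericytes read 1176 CPM (1078 to 1281) in WT, 1392 (1262 to 1531) in BMD and 1309 (1189 to 1438) in DMD. WT was the lowest, and the ratios over WT were 0.24 (0.06 to 0.43) in BMD and 0.16 (-0.03 to 0.34) in DMD. Smooth muscle nuclei read 686 CPM in WT from 41 nuclei (452 to 998), 1363 in BMD from 93 (1158 to 1595) and 781 in DMD from 74 (613 to 980), where BMD stood above both others. The remaining 7 compared classes lay below the cardiomyocyte range.

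In cardiomyocytes Ednra read 395 CPM (2527 UMIs, 380 to 411) in WT, 545 (3621 UMIs, 527 to 563) in BMD and 611 (2388 UMIs, 587 to 636) in DMD. The 3 libraries were ordered WT, BMD, DMD with no overlap of the intervals. The log2 ratio was 0.46 (0.39 to 0.54) in BMD over WT, inside the fold, 0.63 (0.55 to 0.71) in DMD over WT, past it, and 0.17 (0.09 to 0.24) in DMD over BMD. The share of cardiomyocyte nuclei with an Ednra UMI was 52.6% (WT), 68.3% (BMD) and 71.3% (DMD), and after thinning to 500 UMIs it was 15.2% (13.7 to 16.8), 21.7% (19.6 to 23.8) and 23.2% (20.7 to 25.8). In macrophages, which should lack the receptor, the thinned share was 1.01%, 2.03% and 1.55%, at median depths of 1151, 1151 and 1178 UMIs against 2764, 3767 and 3249 in cardiomyocytes. Markers of pericytes in cardiomyocytes (10 of 10 markers) summed to 991 CPM (WT), 995 (BMD) and 663 (DMD). Their part in the Ednra levels was not tested.

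The cardiomyocyte nuclei of WT and of the dystrophic hearts lay largely in different clusters, so Ednra was also read within clusters, a comparison added after seeing the data. The cluster led by Myo3b held 1553 WT, 169 BMD and 176 DMD nuclei, and Ednra read 373, 523 and 597 CPM there. The cluster led by Hs3st2 and Acta1 held 475 WT, 1354 BMD and 891 DMD nuclei, and Ednra read 456, 547 and 613 CPM. The order WT, BMD, DMD was thus the same in both, with log2 ratios of DMD over WT of 0.68 (0.48 to 0.87) and 0.43 (0.31 to 0.55), the second inside the fold, and of BMD over WT of 0.49 (0.29 to 0.68) and 0.26 (0.15 to 0.38).

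In macrophages Ednra read 26.4 CPM (WT), 55.9 (BMD) and 47.8 (DMD), log2 ratios over WT of 1.07 (0.37 to 1.83) and 0.85 (0.10 to 1.63). Free RNA could supply at most 20.4 CPM (WT), 45.8 (BMD) and 21.5 (DMD) of these levels. Cardiomyocyte markers in macrophages, 9 of 9, moved in the same order, with 930 CPM (WT), 2134 (BMD) and 1319 (DMD), and Dmd read 725, 1871 and 807 CPM there. Without doublet calls the ratio of DMD over WT fell to 0.08, and in the Ltc4s cluster BMD over WT was -0.06. The part of cardiomyocyte RNA in the macrophage levels of Ednra was not tested.

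Ednrb, the clearing and vasodilator receptor, was highest in venous-leaning endothelium and endocardium. Venous-leaning nuclei read 344 CPM (303 to 390) in WT, 314 (276 to 355) in BMD and 389 (352 to 427) in DMD, and no ratio over WT cleared 0. Arterial-leaning nuclei read 149, 129 and 149 CPM, so venous-leaning nuclei exceeded them by 2.30 fold in WT, 2.44 fold in BMD and 2.60 fold in DMD. Ace and Ednrb were in this way placed at opposite ends of the endothelium in all 3 libraries, Ace in the Gja4 cluster and Ednrb in the Selp cluster, which read 302 to 375 CPM of Ednrb.

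In endocardial nuclei Ednrb read 365 CPM (77 UMIs, 288 to 456) in WT, 232 (62 UMIs, 178 to 297) in BMD and 245 (101 UMIs, 200 to 298) in DMD. WT was the highest, and its interval touched that of both others. The log2 ratio was -0.65 (-1.16 to -0.15) in BMD over WT, past the fold, and -0.58 (-1.02 to -0.13) in DMD over WT, just inside it. Under 6 of 11 alternatives the BMD ratio also came inside the fold, to -0.58 with TMM factors, -0.56 with DESeq2 factors, -0.45 with the aggregated counts and -0.30 with at least 1000 UMIs per barcode.

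In pericytes the order was the opposite: Ednrb read 78.2 CPM (35 UMIs, 54.5 to 109) in WT, 148 (45 UMIs, 108 to 198) in BMD and 186 (62 UMIs, 143 to 239) in DMD. The log2 ratio was 0.92 (0.25 to 1.60) in BMD over WT and 1.24 (0.63 to 1.89) in DMD over WT, both past the fold. Over 11 alternative settings the ratios stayed between 0.73 and 1.39 and between 1.05 and 1.55. Endothelial markers in pericytes, 9 of 9, summed to 103 CPM in WT, 112 in BMD and 273 in DMD, against 8961 to 9941 CPM in endothelial nuclei, and their part in the result was not tested. In macrophages Ednrb read 48.7 CPM in WT, 36.5 in BMD and 73.5 in DMD, beside endothelial markers at 538, 558 and 1136 CPM. Free RNA could supply at most 4.06 to 5.77 CPM of these, and without doublet calls the ratio of DMD over WT went from 0.59 to 0.32, inside the fold.

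Nos1, the neuronal synthase, had its highest levels in lymphatic and endocardial nuclei. Among the compared classes its mean over the libraries was lowest in cardiomyocytes (8.45 CPM), near those of macrophages (9.12) and fibroblasts (9.13). The ranges of these classes overlapped, and only in DMD did cardiomyocytes read lowest. Through their depth cardiomyocytes still held 149 of the 642 Nos1 UMIs (23.2%). Lymphatic nuclei read 113 CPM (21 UMIs, 69.9 to 173) in WT, 138 (54 UMIs, 103 to 180) in BMD and 177 (58 UMIs, 134 to 229) in DMD. The intervals overlapped, and the ratio of DMD over WT, 0.63 (-0.10 to 1.44), did not clear 0. Endocardial nuclei read 185 CPM (39 UMIs, 131 to 253) in WT, 97.1 (26 UMIs, 63.5 to 142) in BMD and 77.7 (32 UMIs, 53.1 to 110) in DMD. WT was the highest, with log2 ratios of -0.92 (-1.70 to -0.17) in BMD and -1.25 (-1.97 to -0.54) in DMD over WT. Lymphatic markers in endocardial nuclei, 9 of 9, summed to 497 CPM (WT), 355 (BMD) and 730 (DMD), and their part in the Nos1 levels was not tested. With only barcodes of at least 1000 UMIs, the endocardial ratios became 0.18 in BMD and -0.40 in DMD, so the BMD difference changed direction.

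In cardiomyocytes Nos1 read 10.5 CPM (67 UMIs, 8.13 to 13.3) in WT, 8.73 (58 UMIs, 6.63 to 11.3) in BMD and 6.15 (24 UMIs, 3.94 to 9.14) in DMD. DMD was the lowest, at a log2 ratio of -0.75 (-1.51 to -0.08) over WT, past the fold, whereas BMD over WT gave -0.26 (-0.80 to 0.26). Free RNA could supply at most 0.33 to 0.43 CPM of these. Most WT and DMD cardiomyocytes lay in different clusters (76.6% of WT in the Myo3b cluster, 83.5% of DMD in the Acta1 cluster). Within the Acta1 cluster the ratio of DMD over WT was -0.11 (-1.15 to 1.06), inside the fold, and within the Myo3b cluster it rested on 1 DMD UMI against 50.

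Nos3, the endothelial synthase, hardly differed between the libraries within the cells that carried it. Arterial-leaning nuclei read 493 CPM (440 to 550) in WT, 483 (441 to 528) in BMD and 490 (446 to 538) in DMD. Endocardial nuclei read 464, 493 and 417 CPM and venous-leaning nuclei 415, 454 and 468 CPM. In every one of these classes the 3 intervals overlapped and no ratio cleared 0. Summed over the 3 classes, the log2 ratio was 0.06 (-0.08 to 0.20) in BMD over WT and 0.04 (-0.09 to 0.18) in DMD over WT. The other 6 compared classes lay between 0 and 87.2 CPM, of which free RNA could supply at most 1.46 to 24.3 CPM. Past the fold in DMD over WT were macrophages, at 28.4 and 49.0 CPM, and T or NK cells, at 47.2 and 87.2 CPM. Without doublet calls the ratio in T or NK cells went from 0.87 to 0.06, and as a mean over nuclei that in macrophages went from 0.78 to 0.53, both inside the fold.

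Over whole libraries the same gene gave another picture. All nuclei together read 53.8 CPM of Nos3 in WT, 76.4 in BMD and 108 in DMD, a log2 ratio of 1.0 (0.88 to 1.12) in DMD over WT. Arterial-leaning, venous-leaning and endocardial nuclei carried 88.9% of all named Nos3 UMIs, and they held 9.09% of the UMIs of WT nuclei, 13.8% in BMD and 17.5% in DMD. As shares of nuclei they were 17.3%, 24.4% and 27.3%. When every library was given the WT mix of UMIs by class, a comparison added after seeing the data, the log2 ratio of Nos3 was 0.03 in BMD over WT, from 0.54 with the own mix, and 0.22 in DMD over WT, from 1.02.

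The other endothelial genes moved in the same way to different degrees. At the WT mix the ratio of Ednrb in DMD over WT went from 0.96 to 0.23 and that of Ece1 from 0.51 to 0.09. Ace went from 1.25 to 0.64 and Edn1 from 3.14 to 2.36, both still past the fold, without an interval at the WT mix. For Ace, the sum over endothelial and endocardial nuclei lay inside the fold in DMD over WT, at 0.45 (-0.16 to 1.10). Ednra went the other way, from 0.29 to 0.52, as its main carriers, the cardiomyocytes, made up 28.4% of the DMD UMIs against 37.2% of the WT ones. Whether the shares of nuclei reflect the tissue or the recovery of nuclei cannot be told apart with 1 library a genotype.

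**Figure D4:**
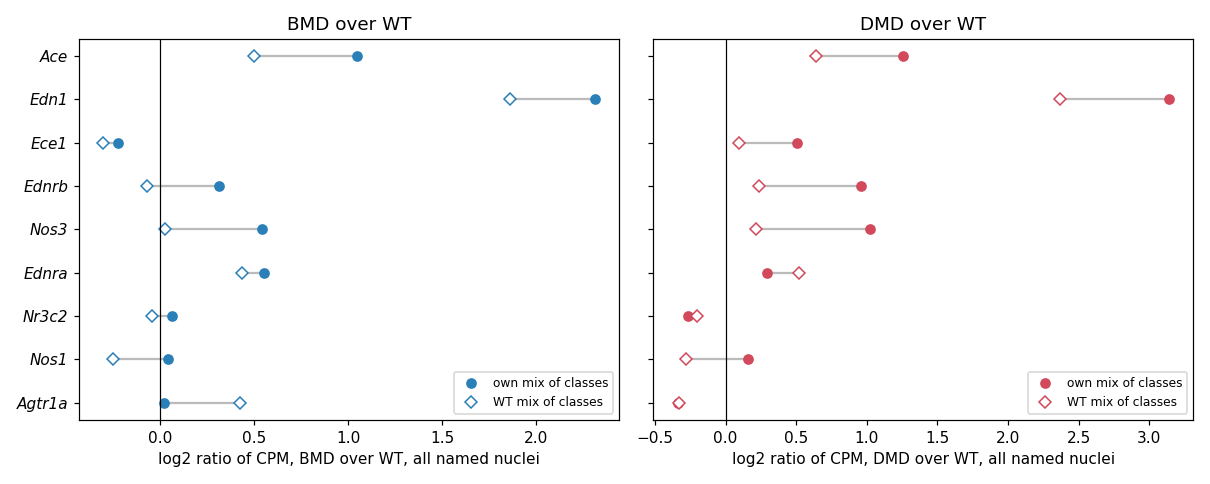
Log2 ratio of CPM over all named nuclei (x axis) for 9 genes (y axis, Agt left out at 14 UMIs), BMD over WT in the left and DMD over WT in the right panel. Filled circles use each library's own mix of classes, and open diamonds give every library the WT mix. In DMD over WT, Nos3 goes from 1.02 to 0.22 and Edn1 from 3.14 to 2.36.

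Class by class, the counts of these genes were read against all measured genes of the class. In cardiomyocytes 0 of 4 lay past the fold in BMD over WT (17.1% of all genes), 2 of 4 in DMD over WT (19.3%) and 0 of 4 in DMD over BMD (11.6%). In fibroblasts the counts were 1 of 5 (16.0%), 0 of 5 (11.4%) and 1 of 5 (9.46%). Arterial-leaning endothelium gave 0 of 6 in each comparison (12.3%, 10.8% and 12.6%), and venous-leaning endothelium gave 0 of 5 in each (13.6%, 10.4% and 13.1%). No measured gene thus passed the fold in either of these classes alone. Over both with the endocardium, the sum of Ace did in BMD over WT, as given above. The sum of Nos1 did at -0.63 (-1.22 to -0.05) in BMD and -0.82 (-1.40 to -0.24) in DMD over WT. Of the 56 WT Nos1 UMIs, 6 were arterial-leaning and 11 venous-leaning. The counts were 11 and 11 of 48 in BMD and 8 and 9 of 49 in DMD. The rest were endocardial, where the BMD ratio changed direction with at least 1000 UMIs per barcode. Endocardial nuclei gave 2 of 5 (16.7%), 1 of 5 (14.3%) and 0 of 5 (17.8%), all of them lower than in WT, and lymphatic nuclei 0 of 5 (17.8%), 1 of 5 (14.0%) and 0 of 5 (12.1%). Pericytes gave 1 of 5 (12.9%), 2 of 5 (12.2%) and 0 of 5 (10.7%). T or NK cells gave 0 of 2 (18.9%), 1 of 3 (14.2%) and 0 of 2 (17.7%). Macrophages had the most, with 2 of 4 (19.3%), 3 of 5 (18.1%) and 3 of 5 (16.7%), and the median ratio of the 5 genes in DMD over WT was 0.59 there against 0.02 over all genes. The 3 in DMD over WT were Ednra, Ednrb and Nos3, and each came inside the fold under at least 1 alternative, as given above. Over all measured genes the median ratio lay between -0.06 and 0.03 in every class and comparison. These counts hold 2 to 6 genes each and are a description.

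A wider list of 43 genes of the 3 systems, taken from textbook membership, had 39 matched by symbol (Cyp11b1, Cyp11b2, Nos1ap and Prkg1 were not analysed here). Over the 9 classes, 91 pairs of listed gene and class were measured in BMD over WT, of which 8 lay past the fold upward and 17 downward, with a median ratio of -0.15. In DMD over WT 13 of 92 lay past it upward and 14 downward (median -0.08), and in DMD over BMD 13 of 95 upward and 6 downward (median 0.10). The shares past the fold were 27.5%, 29.3% and 20%, against 16.1%, 14.1% and 12.9% of all pairs. All 3 shares lay above those of all pairs. The list was drawn up with earlier results of these data known, so these shares are a description and no evidence of an excess. In pericytes, 0 of 8 listed genes passed in BMD over WT, and 2 upward and 1 downward of 8 in DMD over WT. In arterial-leaning endothelium 0 upward and 2 downward of 9 passed in BMD over WT, and 0 of 9 in DMD over WT. In cardiomyocytes 5 upward and 2 downward of 16 passed in BMD, and 5 and 1 of 13 in DMD. Fibroblasts had 2 upward and 4 downward of 22 in each of the comparisons with WT, and macrophages 1 upward and 4 downward of 13 in BMD and 2 and 5 of 13 in DMD.

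The targets of nitric oxide were mural. Gucy1a1, Gucy1a2 and Gucy1b1, subunits of soluble guanylate cyclase, and Pde5a, which degrades cyclic GMP, had their highest levels in pericytes or smooth muscle. In 3 classes outside the mural cells Gucy1a1 was lower than in WT in both dystrophic libraries. In fibroblasts it read 189 CPM (910 UMIs) in WT, 78.0 (223 UMIs) in BMD and 86.8 (297 UMIs) in DMD, ratios of -1.28 (-1.50 to -1.07) and -1.12 (-1.32 to -0.93). In lymphatic nuclei Gucy1a1 read 215, 120 and 94.5 CPM. In macrophages it read 50.7 CPM in WT, 10.3 in BMD and 25.7 in DMD. The fibroblast clusters of resolution 1 were filled unequally. That led by Dpep1 held 41.8% of the WT, 13.3% of the BMD and 18.2% of the DMD nuclei in these clusters. The part of this shift in the fibroblast levels of Gucy1a1 and of the other listed genes below was not tested.

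Among genes that feed or limit nitric oxide synthesis, Gch1, the first enzyme of tetrahydrobiopterin synthesis, read 4.85 CPM in WT cardiomyocytes, 9.93 in BMD and 10.2 in DMD (log2 ratios over WT of 1.02 and 1.07). In macrophages the levels were 106 CPM (WT), 70.7 (BMD) and 34.3 (DMD), with log2 ratios over WT of -0.59 and -1.62. Ddah1, which degrades the synthase inhibitor asymmetric dimethylarginine, read 8.53 CPM in WT fibroblasts, 19.9 in BMD and 16.6 in DMD. Gucy1a2 in cardiomyocytes read 3.76, 5.87 and 7.68 CPM, the interval of the log2 ratio of BMD over WT reaching below 0 (-0.13 to 1.44). The Myo3b cluster held 76.6% of the WT, 11.1% of the BMD and 16.5% of the DMD nuclei in the cardiomyocyte clusters. The part of this shift in the cardiomyocyte levels of Gch1 and Gucy1a2 was not tested.

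Among peptidases and regulators of the angiotensin system, Mme, the gene of neprilysin, read 19.8 CPM in WT fibroblasts, 9.79 in BMD and 7.01 in DMD, ratios of -0.99 and -1.47. Agtrap, which binds the type 1 receptor and favours its internalisation, read 22.0 CPM in WT fibroblasts, 10.8 in BMD and 13.1 in DMD, where Agtr1a itself was the highest in BMD. Anpep, an aminopeptidase of angiotensin III, read 170 CPM in WT macrophages, 76.4 in BMD and 80.8 in DMD. It was also a leading gene of the Spp1 cluster of macrophages. That cluster held 35.7% of the WT nuclei in the macrophage clusters, 16.0% of the BMD and 20.6% of the DMD ones. The part of this shift in the macrophage levels of Anpep and of the other listed genes was not tested. Furin, a convertase of the endothelin precursor, read 74.0, 37.6 and 46.5 CPM in macrophages. These 8 genes, with Gucy1a1 counted in 3 classes and Gch1 in 2, were all the listed genes past the fold in the same direction in both comparisons with WT, which share the WT library.

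Profiles of the genes over the 28 combinations of class and library with at least 100 nuclei, which take in the DMD nuclei of the class called monocyte or neutrophil, were compared with those of 11331 genes, as Pearson correlations of log2(CPM + 5), a description in which the points share libraries and classes. Nos3 was most like Myrip (0.98), Cyyr1 (0.97) and Adgrf5 (0.97). Ednrb was most like Gcnt2 (0.94), Zdhhc17 (0.91) and Adcy4 (0.89), and Ece1 was most like Eln (0.94), Arhgap29 (0.93) and Zfp521 (0.93). For Ednra the nearest were Slc6a17, Itga7 and Art3 (0.93, 0.93 and 0.92), and for Agtr1a Prph, Mrvi1 and Snph (0.94, 0.93 and 0.93). Nr3c2 was nearest to Phldb2, Rarb and Mapt (0.90, 0.88 and 0.87), Ace to LOC100362814, N4bp1 and Cd300lg (0.92, 0.90 and 0.89), and Nos1 to Dmtn, Sema3a and Reln (0.86, 0.85 and 0.85). Among the 10 genes the highest correlations were those of Nos3 with Ednrb, Ece1 and Ace, at 0.74 each, and the lowest that of Ednra with Ece1, at -0.57. Edn1 and Agt were too rare for such a comparison.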

How the data were processed

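Nuclei of 3 libraries were prepared with a 10x 3' kit, version 3.1. The deposited files hold raw UMI counts per gene and barcode, which the authors made with Cell Ranger against rn6 per the submitters' processing notes (headers name version 6.0.1 for WT and 4 for BMD and DMD). The deposited WT matrix was an aggregate of all 3 libraries: suffixes 1 and 2 carried the barcodes of the BMD and DMD files at 76.1% and 92.9% of their UMIs, so suffix 3 was taken as WT. Columns of no sample numbered 0. The barcodes with most UMIs were kept, as many as the methods state (9964, 6810 and 7890 nuclei), of at least 513, 525 and 546 UMIs. Pairs of libraries shared 20, 12 and 12 nucleus barcodes. Per library, 70.8% to 79.4% of 19215994 to 21609238 UMIs lay in nuclei.

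Counts were scaled to 10000 per nucleus, and 2000 variable genes without the 10 genes and the wider list gave 30 principal components, 15 neighbours and Leiden clusters at resolution 0.5 (scanpy 1.11.5), the mural cluster being split further at 0.3. A cluster was named from at least 3 raised markers (2 fold) and left unnamed at over 50% doublet calls (Scrublet) or when mitochondrial genes led it. These last rules and the splits were chosen after seeing the data. Doublets elsewhere were kept.

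UMIs were summed by class and library. Intervals are exact (Poisson for levels, binomial split for ratios with 0.5 UMIs added, Clopper-Pearson for shares; scipy 1.17.1) at 95% and cover counting error only; for 0 UMIs the text gives a floor of 3 UMIs, about the one-sided limit. Thinning to 500 UMIs left out 0 nuclei. No test was run, since there was 1 library a genotype. The ratio step was tested on simulated data. All 10 genes were named; of the wider list, those past the fold in one direction in both comparisons with WT; and for each gene with at least 200 UMIs, the 3 most alike. The genes and lists were chosen with earlier results of these data known. Alternatives used edgeR 4.0.16 and DESeq2 1.42.0 for scaling factors only.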

Additional observations from a re-analysis of the deposited data

Results flagged for a closer look

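Ednrb lay past 1.5 fold in opposite directions in 2 classes of the same comparison. In BMD over WT its log2 ratio was -0.65 in endocardial nuclei (77 UMIs in WT and 62 in BMD) and 0.92 in pericytes (35 UMIs in WT and 45 in BMD), and the intervals of both stayed clear of 0. The endocardial ratio came inside the fold under 6 of 11 alternatives, down to -0.30, whereas that in pericytes stayed past it under all 11. The difference between the classes was not tested, as there was 1 library a genotype.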

How the results depend on the processing

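No paired analysis was possible because each genotype had 1 library. Over 126 ratios of a gene in a class, 1497 values were computed under the alternatives other than those added after seeing the data: 1403 stayed within the interval of counting error, 88 left it and 6 reversed. The count past the fold in BMD over WT, 6, became 10 without nuclei over 5% mitochondrial UMIs, 10 as a mean over nuclei, 27 with no minimum and 2 with a minimum of 100 UMIs. That in DMD over WT, 10, became 6 without doublet calls, 6 as a mean over nuclei, 41 with no minimum and 2 with a minimum of 100 UMIs. That in DMD over BMD, 4, became 27 and 1 with those minimums. Taken over all nuclei, the ratio reversed to -0.032 for Agtr1a (fibroblasts, BMD over WT), 0.26 for Ednrb and 0.055 for Nos1 (endocardial, BMD over WT), and 0.063 for Nos1 in DMD over WT (from cardiomyocytes and endocardial nuclei). With at least 1000 UMIs per barcode Nos1 in endocardial nuclei reversed to 0.18 in BMD over WT. The causes were not tested.

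Of 20 ratios past the fold, 4 stayed past it under every alternative run for them within a class: Ednrb in pericytes (both over WT) and in macrophages (DMD over BMD) and Agtr1a in fibroblasts (DMD over BMD). Endothelial markers in macrophages read 558 CPM in BMD and 1136 in DMD. No alternative took out endothelial RNA other than free RNA and doublet calls, so its part in the Ednrb ratios was not tested. Values within finer clusters were added after seeing the data, where a cluster held at least 20 UMIs over both libraries. Fibroblast clusters below that minimum, that led by Efhd1 among them, were thus not among the alternatives for Agtr1a in DMD over BMD. BMD over WT reversed to -1.33 for Agtr1a in the fibroblast cluster led by Efhd1 and to -0.059 for Ednra in the macrophage cluster led by Ltc4s. Nos1 in cardiomyocytes went to -0.11 (DMD over WT). Without doublet calls, Nos3 in macrophages went from 1.02 to 0.09 in DMD over BMD. The venous-leaning class found no cluster when all barcodes of at least 500 UMIs were used. The class with the highest level moved for Ednrb under that setting and for Nos3 without doublets and as a mean over nuclei, in each case to the endocardium, and for Agt without mitochondrial nuclei. Ratios summed over arterial-leaning, venous-leaning and endocardial nuclei were not among the planned results and were not run under the alternatives. At 1 library a genotype, depth limits Agt, Edn1 and Ace most.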

Other observations

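Other genes of the 3 systems had their own places in the heart. Enpep, which turns angiotensin II into angiotensin III, was highest in lymphatic nuclei (mean over the libraries 566 CPM) and next in venous-leaning endothelium (469 CPM). Hsd11b1, which regenerates the glucocorticoids that also bind the mineralocorticoid receptor, was highest in fibroblasts (285 CPM), whereas Hsd11b2, which inactivates them, gave 8 UMIs in all nuclei. Cav1, the caveolar protein that holds Nos3, was highest in arterial-leaning endothelium (734 CPM). Agtr2, Ctsg and Kel gave 0 UMIs, and Nos2, the inducible synthase, gave 25 UMIs in all.

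Clusters without a name were not used in any comparison. In 61 nuclei led by the cell cycle genes Cenpf, Top2a and Mki67, Nr3c2 read 171 CPM, Ece1 124 CPM and Nos3 82.7 CPM, over the 3 libraries together. In 105 nuclei led by Wdfy4, Flt3 and Ciita, Ece1 read 346 CPM (265 to 444), Nr3c2 142 CPM and Nos3 22.7 CPM.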
